A study of Bos taurus with 60 samples.

Results

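The genes described here are the 100 endometrial genes with the highest single-heifer peaks among 12593 eligible genes, out of 14363 genes with enough counts to be tested. Each gene was ranked by the distance between its highest log2 CPM (read counts scaled for library size) in any of 60 heifers and its median over all heifers. Genes correlated with the gene ENSBTAG00000008471 (Pearson r outside -0.4 to 0.6) and the 100 genes with the most counts had been set aside first. The members were therefore chosen on their peaks, and the size of a peak is given as a description without a test. The value that chose a gene also enters every dietary comparison of that gene.

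The study fed nulliparous crossbred beef heifers, synchronised in oestrus and inseminated, a diet with an n-3 PUFA product or a control diet with palmitic acid for 30 days before insemination. They were then kept on a high plane of nutrition or restricted to a low plane for 16 days, after which endometrium from the uterine horn next to the corpus luteum was sequenced (single-end mRNA-seq). The 4 dietary groups were CON_Low (control diet, low plane, n = 14), CON_High (control diet, high plane, n = 14), PUFA_Low (n-3 PUFA diet, low plane, n = 15) and PUFA_High (n-3 PUFA diet, high plane, n = 17), with 1 heifer per sample. Pregnant and non-pregnant heifers were both present, and the pregnancy status of each heifer was not used here.

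Endometrium is a mixture of luminal and glandular epithelium, stroma, vessels and immune cells, and around the time sampled it is under luteal progesterone and, in a pregnant heifer, under signals of the elongating conceptus. In a bulk sample of this kind, fewer cells of a type and less RNA per cell cannot be told apart. The deposited counts carry Ensembl identifiers that were not paired with gene symbols here. The roles of the genes, their positions and their sequences, and marker genes of the tissue, are therefore not given. For PUFA_Low minus PUFA_High, 2 genes in each direction are named by identifier and the others by their rank from 1 to 100 (rank 1 has the highest peak).

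Library totals were 9635801 to 13943813 counted reads (median 11556278). The 2 heifers with the most peaks each, PUFA_High replicates 2 and 11, had 10620187 and 10972798 counts, 16762 and 16510 detected genes and 18.4% and 21.3% of their counts in the 100 most abundant genes. Each of these values lay within the range of the other 58 heifers. ENSBTAG00000008471, used in the choice of genes, had a log2 CPM of 4.19 and 3.42 in them, against a median of 9.51 and a range of 1.58 to 11.2 over all heifers. No heifer lay between 4.19 and 7.33. Both were thus among the heifers low in this gene, which were found in every diet. The members' own r with it ran from -0.39 to 0.42.

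The highest value of a member exceeded its median by 3.79 to 9.89 log2 units, with a median of 4.55, which is 13.9-fold to 948-fold on the scale of log2 CPM with a prior count of 2. The median distance over all tested genes was 0.89 log2 units. Median abundance of the members ran from 0.0846 to 118 CPM, and 46 of 100 had a median under 1 CPM. Their highest values ran from 5.92 to 4405 CPM, made of 61 to 48404 counts. In 37 members at least 1 heifer had no count. The genes at rank 99 and rank 100 had distances of 3.80 and 3.79, and the next eligible genes, just outside the list, 3.78 and 3.78.

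A heifer was said to be at peak for a gene when its value was at least 2 log2 units, or 4-fold, above the gene's median. Members had between 1 and 26 heifers at peak, with a median of 5. In 4 genes 1 heifer was at peak, in 29 genes 2 heifers, in 18 genes 3 to 5, in 27 genes 6 to 10, in 17 genes 11 to 20 and in 5 genes more than 20. The members were thus not all high in only a few heifers, since 22 of 100 were at peak in more than 10 heifers. In 17 members the highest heifer stood at least 4-fold above the second, and these highest values came from 9 heifers. At rank 4, CON_Low replicate 14 had 2087 CPM, the next heifer 209 CPM and the median was 12.3 CPM. At rank 42, CON_High replicate 9 had 187 CPM, the next heifer 19.4 CPM and the median was 6.79 CPM. Rank 42 was at peak in that heifer alone.

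**Figure D1:**
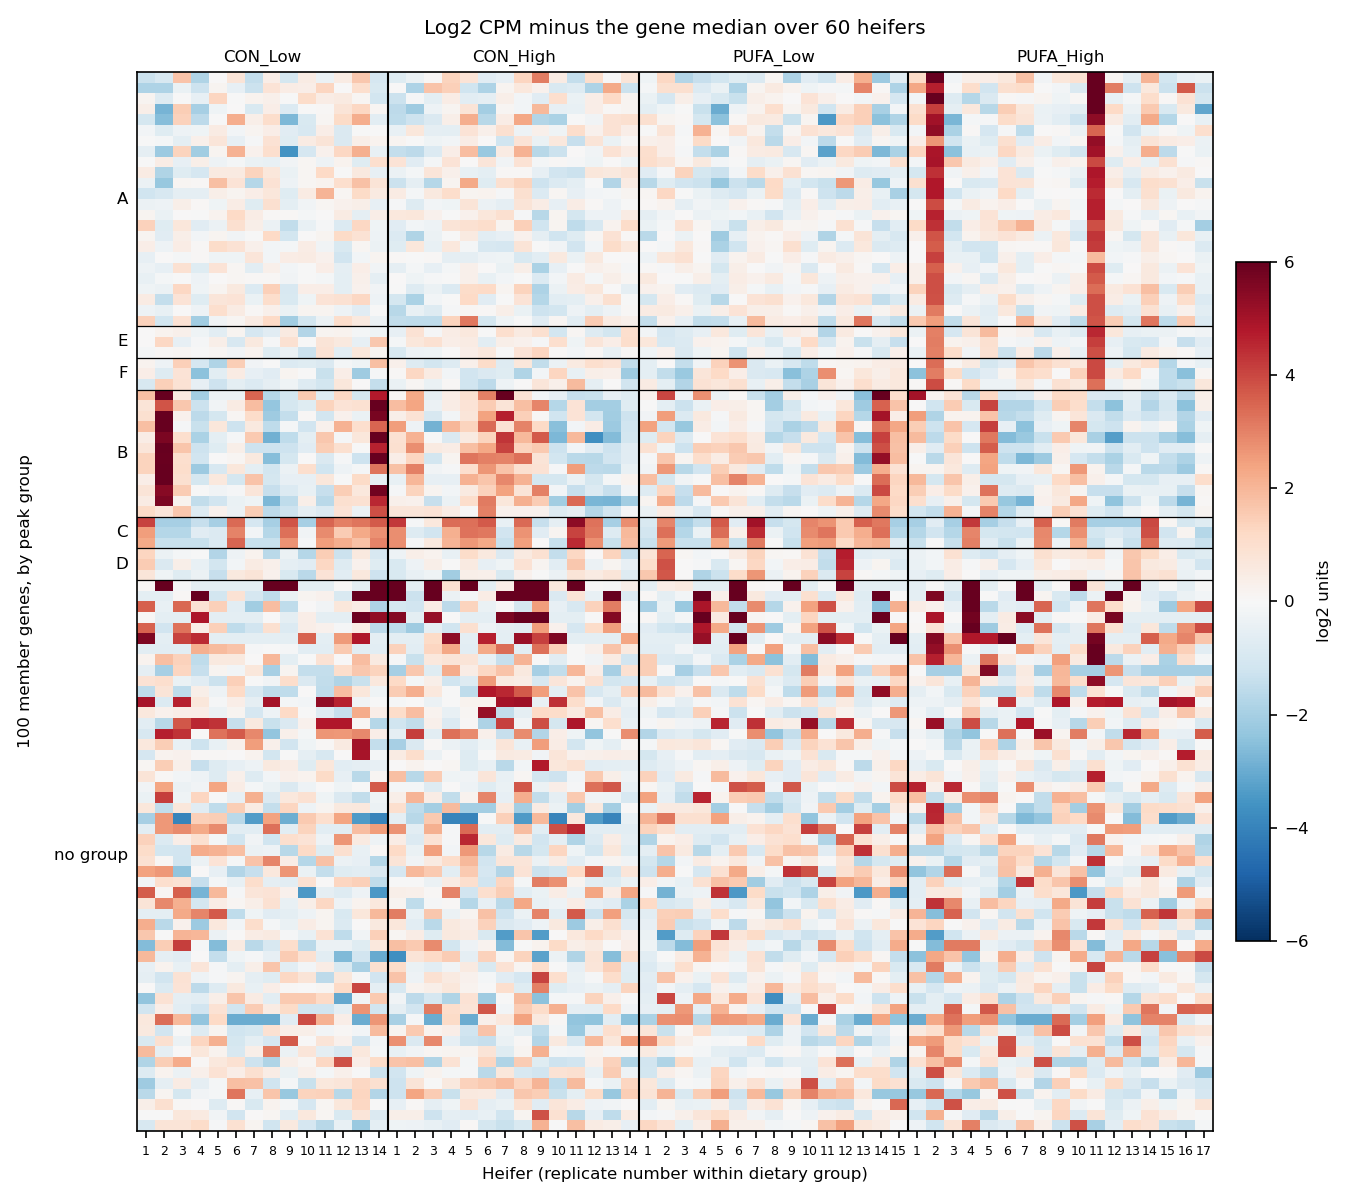
Log2 CPM minus the gene's median over 60 heifers (colour, red higher and blue lower, colours end at 6 log2 units) for the 100 member genes in rows, sorted by peak group, and the 60 heifers in columns, sorted by dietary group and replicate number. Groups A, E and F are red in PUFA_High replicates 2 and 11, group B mainly in CON_Low replicates 2 and 14 and PUFA_Low replicate 14, group C in many heifers of every diet, and group D in PUFA_Low replicates 2 and 12.

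Peaks were shared very unevenly between heifers. Of 688 peaks in all, 94 were in PUFA_High replicates 2 and 11, in which 48 and 46 members were at peak. The next were CON_High replicate 9 with 23 members and CON_High replicate 8 with 21, and the fewest in any heifer was 2. The highest value of 26 members was in PUFA_High replicate 11, of 15 in replicate 2 and of 8 in CON_Low replicate 2, and 24 heifers held no highest value. At a stricter limit of 8-fold above the median, 82 of 398 peaks were in PUFA_High replicates 2 and 11.

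The number of members at peak per heifer overlapped between all 4 diets. It ran from 2 to 20 in CON_Low (median 8), from 5 to 23 in CON_High (median 9), from 2 to 20 in PUFA_Low (median 12) and from 6 to 48 in PUFA_High (median 10). Without replicates 2 and 11 the PUFA_High heifers ran from 6 to 15, with a median of 9. The highest values of 56 members were in PUFA_High heifers, and 41 of these were in replicates 2 and 11. The dietary groups accounted for a median of 5.49% of the variance of a member's log2 CPM and at most 15.5%, where 5.08% is expected with no difference between groups. The median over all tested genes was 7.59%. The library codes begin with 1 of 6 prefixes, whose meaning the labels do not give. Median peaks per heifer were 8.5 to 11.5 across the prefixes, and PUFA_High replicates 2 and 11 carried different prefixes.

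**Figure D2:**
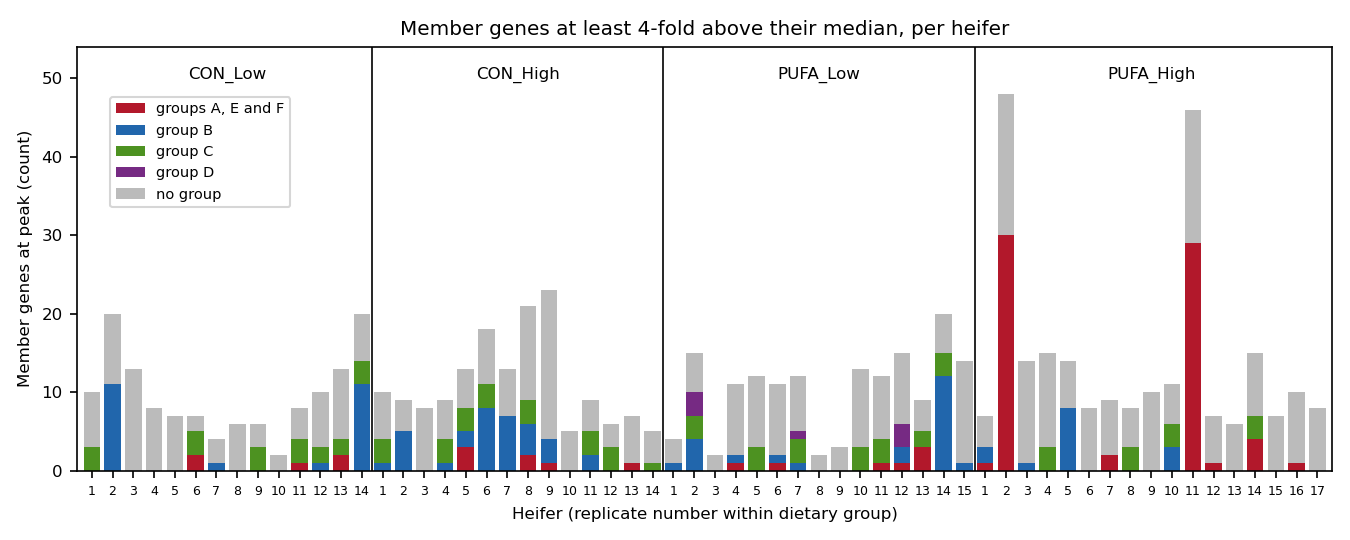
Number of member genes at least 4-fold above their own median in each heifer (bars, one per heifer, sorted by dietary group and replicate number), coloured by peak group. PUFA_High replicates 2 and 11 reach 48 and 46 genes, mostly of groups A, E and F, and the other 58 heifers lie between 2 and 23.

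PUFA_High replicates 2 and 11 peaked in the same genes. Both were at peak in 39 members and at least 1 of them in 55, 23 members peaked in no other heifer, and in 34 members these were the highest 2 of 60 heifers. The next most frequent pair, CON_Low replicates 2 and 14, held the highest 2 places in 7 members. Outside the members, PUFA_High replicates 2 and 11 held the highest 2 places in 641 of 14263 genes (4.49%), against 415 for the next pair and a mean of 8.06 over 1770 pairs of heifers. The lowest 2 places were theirs in 394 genes and another pair's in 396. Over the 14263 genes outside the list, the deviations of the 2 heifers from the gene medians correlated at r = 0.68, where the other pairs had a median r of -0.0075 and a highest r of 0.66. This correlation is across genes, which are not independent replicates. The 2 heifers were thus alike outside the members as well, with 137 and 187 non-member genes at peak against at most 126 in any other heifer. The genes outside the list include those set aside for their correlation with ENSBTAG00000008471, which was low in both heifers. Whether they were more alike than other heifers low in that gene was not tested. They had 309 and 289 genes at least 4-fold below the median, within the range of the other heifers (up to 364).

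Members were grouped by the correlation of their log2 CPM over the 60 heifers (average linkage on 1 - r, cut at 0.5). Of 100 members, 48 fell into 6 groups of at least 3 genes, called A to F here, and 52 into none. The groups describe which heifers share peaks, and no test applies to the genes that formed them.

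Group A, with 24 genes, was the peak of PUFA_High replicates 11 and 2. Its genes lay on average 4.53 and 4.34 log2 units above their medians in these heifers, and the next heifer, PUFA_High replicate 14, was at 0.95. The summed abundance of the group was 9167 CPM in replicate 11 and 7703 CPM in replicate 2. In the other 58 heifers it ran from 147 to 898 CPM, and the median of all 60 was 316 CPM. By diet the median was 318 CPM in CON_Low, 308 CPM in CON_High, 331 CPM in PUFA_Low and 319 CPM in PUFA_High, so the typical heifer of each diet had nearly the same level. The median r between genes of group A was 0.64 and fell to 0.24 without the 2 heifers. The most abundant of its genes, at rank 27, had 4405 and 3491 CPM in PUFA_High replicates 11 and 2, then 537 CPM in the next heifer and a median of 107 CPM.

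Groups E and F, with 3 genes each, were formed by the same 2 heifers, so that 30 members in all followed PUFA_High replicates 2 and 11. Group E had 58.1 CPM in replicate 11 and 27 CPM in replicate 2 against 1.15 to 7.39 CPM in the other heifers. Group F had 1245 CPM and 1813 CPM. Elsewhere the highest value of group F was 453 CPM in CON_High, 323 CPM in CON_Low, 259 CPM in PUFA_Low and 268 CPM in PUFA_High. A further 25 members outside groups A, E and F were at peak in at least 1 of the 2 heifers.

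ENSBTAG00000004680, at rank 6 in group A, shows the pattern of this group gene by gene. In PUFA_High heifers the lowest value was 2.51, the median 7.49 and the highest 867 CPM. The highest values of the group were 867 CPM in replicate 2 and 663 CPM in replicate 11, and the third was 23.7 CPM. The other groups had lowest, median and highest values of 1.08, 3.32 and 24.6 CPM in PUFA_Low, 1.94, 6.85 and 48.6 CPM in CON_High and 1.46, 4.98 and 18.5 CPM in CON_Low. Outside the 2 high heifers, the values of the 4 diets overlapped.

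ENSBTAG00000013550, at rank 19 and also in group A, was a gene of low abundance. In PUFA_High heifers its lowest value was 0.0943, its median 0.651 and its highest 63.0 CPM. The second was 58.8 CPM and the third 1.66 CPM. No heifer of the other diets exceeded 1.97 CPM, and their medians were 0.704 CPM in PUFA_Low, 0.638 CPM in CON_High and 0.786 CPM in CON_Low. All but 2 heifers thus lay in 1 overlapping range.

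Group B, with 12 genes including those at rank 1 and rank 4, was graded over heifers of all diets. Its genes lay on average 5.87 log2 units above their medians in CON_Low replicate 2 and 4.65 in CON_Low replicate 14. PUFA_Low replicate 14 followed at 3.91, CON_High replicate 7 at 2.74, PUFA_High replicate 5 at 2.46 and CON_High replicate 6 at 2.40. Summed abundance was 4763 and 4915 CPM in the CON_Low heifers, 1187 CPM in PUFA_Low replicate 14 and 935 CPM in CON_High replicate 7, and the median of all heifers was 60.7 CPM. The highest value of 7 genes was in CON_Low replicate 2 and of the other 5 in CON_Low replicate 14. By diet the median was 76.5 CPM in CON_Low, 117 CPM in CON_High, 67.4 CPM in PUFA_Low and 29.7 CPM in PUFA_High. The 6 highest heifers thus came from every diet, but the highest 2 were both CON_Low. The correlation between genes of the group held without these 2 (median r 0.72 with and 0.64 without them). The gene at rank 1 had 1390 CPM (16634 counts) in CON_Low replicate 2, 250 CPM in CON_High replicate 7, 202 CPM in PUFA_Low replicate 14 and 47.0 CPM in PUFA_High replicate 1, against a median of 1.29 CPM.

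Group C, with 3 genes, was high or low with almost nothing between. In 26 of 60 heifers the genes lay on average at least 2.21 log2 units above their medians, with 8.19 to 47.7 summed CPM. In 33 heifers they lay at most 0.03 units above, with no more than 1.5 CPM, and 6 of these heifers had no count of any of the 3 genes. PUFA_Low replicate 12 was the only heifer between, at 1.42 log2 units and 4.22 CPM. High heifers numbered 7 of 14 in CON_Low, 8 of 14 in CON_High, 7 of 15 in PUFA_Low and 4 of 17 in PUFA_High. These counts are a description, and their difference was not tested. The median r between the 3 genes was 0.94. Whether these genes share reads, as close paralogs or overlapping genes can, was not tested.

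Group D, with 3 genes, was high in PUFA_Low replicates 12 and 2. Mean deviations were 4.44 and 3.67 log2 units, followed by PUFA_Low replicate 7 at 1.75 and PUFA_High replicate 13 at 1.68. Summed abundance was 122 and 77.6 CPM in the first 2 heifers, 25.7 CPM in the next and 5.52 CPM in the median heifer. ENSBTAG00000044427, at rank 50, had lowest, median and highest values of 0.495, 1.80 and 42.9 CPM in PUFA_Low, where the second was 26.1 and the third 4.17 CPM. In PUFA_High the same values were 0.649, 1.68 and 5.63 CPM, in CON_High 0.811, 1.51 and 5.44 CPM and in CON_Low 0.680, 1.34 and 5.09 CPM. ENSBTAG00000043250, at rank 74, had 0.709, 2.99 and 50.1 CPM in PUFA_Low, with 39.6 and 18.9 CPM in the next 2 heifers. It had 1.66, 2.92 and 9.92 CPM in PUFA_High, 0.552, 2.57 and 4.95 CPM in CON_High and 0.819, 2.27 and 5.25 CPM in CON_Low. The medians of the 4 diets lay close together for both genes, and the separation was in the upper end of PUFA_Low only.

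**Figure D3:**
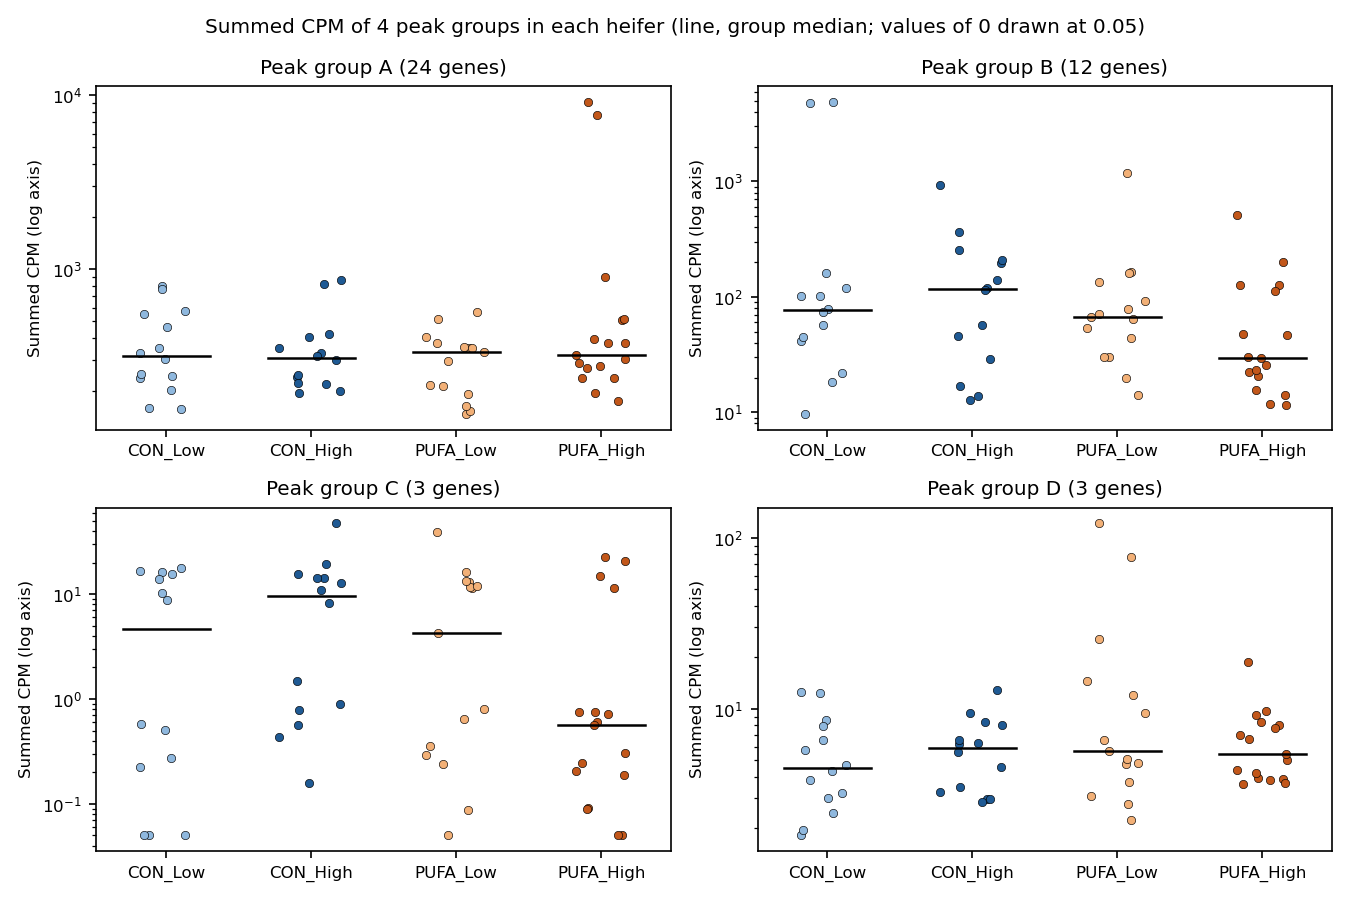
Summed CPM (log axes, values of 0 drawn at 0.05) of peak groups A to D in each heifer (points) by dietary group, with the group median as a line. Group A separates 2 PUFA_High heifers at 9167 and 7703 CPM from the rest, group B is graded, group C falls into a high and a low cloud in every diet, and group D is high in 2 PUFA_Low heifers.

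The 52 ungrouped members had peaks spread over many heifers. Their highest values came from 33 heifers, and 18 were at peak in more than 10 heifers. The gene at rank 2 was at peak in 17 heifers and without a count in 23. Its highest values were 157 CPM in CON_Low replicate 2, 112 CPM in CON_Low replicate 8, 99.9 CPM in PUFA_High replicate 10 and 82.6 CPM in CON_High replicate 9, and 72.3 CPM was the highest in PUFA_Low. High and uncounted heifers of this gene were thus found side by side in each diet.

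Some ungrouped members moved together as pairs of genes. Those at rank 3 and rank 9 had r = 0.98 over the heifers and the same highest heifers, CON_High replicate 8 (185 and 31.1 CPM) and PUFA_Low replicate 6 (177 and 29.4 CPM). In 16 heifers the mean deviation of these 2 genes was at least 2 log2 units. Ranks 7 and 10 had r = 0.95 and were led by PUFA_High replicate 4 (205 and 88.1 CPM), ahead of PUFA_Low replicate 4 (43.7 and 21.3 CPM). In both pairs the leading 2 heifers were of different diets. The next most correlated pair, ranks 21 and 63 (r = 0.84), was led by heifers of 1 diet, PUFA_High replicates 11 and 2, at mean deviations of 5.06 and 4.50 log2 units. At rank 46, in contrast, PUFA_High replicate 11 stood alone with 1214 CPM, where the second heifer, PUFA_Low replicate 5, had 176 CPM and the median was 47.8 CPM.

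Differences in mean between the diets were tested with edgeR's quasi-likelihood test over all 14363 genes. A DEG needed a Benjamini-Hochberg adjusted p under 0.10 and a fold change above 1.5. The peaks that chose the members enter these means, so the test cannot decide whether diet accounts for the peaks. In n-3 PUFA heifers, 50 of 100 members were DEG for plane of nutrition (PUFA_Low minus PUFA_High), 43 lower and 7 higher on the low plane. The background was 5.61% of all genes, 3.17% lower and 2.44% higher. The median log2 fold change within group A was -1.84, and 23 of its 24 genes were lower, as were 3 of 3 genes of group E and 2 of 3 of group F. Group D had 3 of 3 genes higher, group B 1 of 12 higher and group C none.

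Most of the lower genes were those at peak in the same 2 heifers. Of the 55 members at peak in PUFA_High replicate 2 or 11, 39 were lower on the low plane and 0 higher. Of the other 45 members, 4 were lower and 7 higher, where 3.17% and 2.44% of all genes were. A peak in a PUFA_High heifer itself pulls this difference down, so the direction in the 55 was largely set by their choice. By breadth, 27 of the 33 members at peak in 1 or 2 heifers were DEG, against 4 of the 22 at peak in more than 10. The background was 5.61%, and this split also rests on the values tested. A fit without the 2 heifers, chosen after their values had been seen, left 16 of the 99 members tested as DEG, 9 lower and 7 higher. The background in that fit was 4.47%, with 2.06% lower and 2.41% higher. All 16 were among the 50, and 34 were lost, of which 33 were lower genes. Of these lower genes, that at rank 17 was not tested in this fit, since it no longer passed the expression filter. Of the 16, 9 were lower and 6 higher in both fits. The gene at rank 30, in group A, turned from lower with all heifers (log2 fold change -1.55, SE 0.522, adjusted p = 0.025, edgeR) to higher without the 2 (0.81, SE 0.293, adjusted p = 0.0422). In 9 of the 50 the sign of the fold change turned. Group A then had 0 genes lower and 1 higher, with a median log2 fold change of -0.18, and groups E and F had no DEG.

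For ENSBTAG00000004680 the log2 fold change was -4.19 (SE 0.764, adjusted p = 7.79e-05, edgeR) with all heifers and -0.67 (SE 0.417, adjusted p = 0.254) without the 2. For ENSBTAG00000013550 it was -3.55 (SE 0.677, adjusted p = 0.000152, edgeR) and -0.05 (SE 0.30, adjusted p = 0.929). Neither gene was a DEG without these heifers. ENSBTAG00000044427 was higher on the low plane by 1.66 (SE 0.432, adjusted p = 0.00398, edgeR) and ENSBTAG00000043250 by 1.52 (SE 0.40, adjusted p = 0.00431). In a fit without PUFA_Low replicates 2 and 12, also chosen after the values had been seen, these differences were -0.07 and 0.43 and neither gene was a DEG. Group D as a whole went from 3 of 3 genes higher to 0, where the background was 4.83% (2.27% higher).

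**Figure D4:**
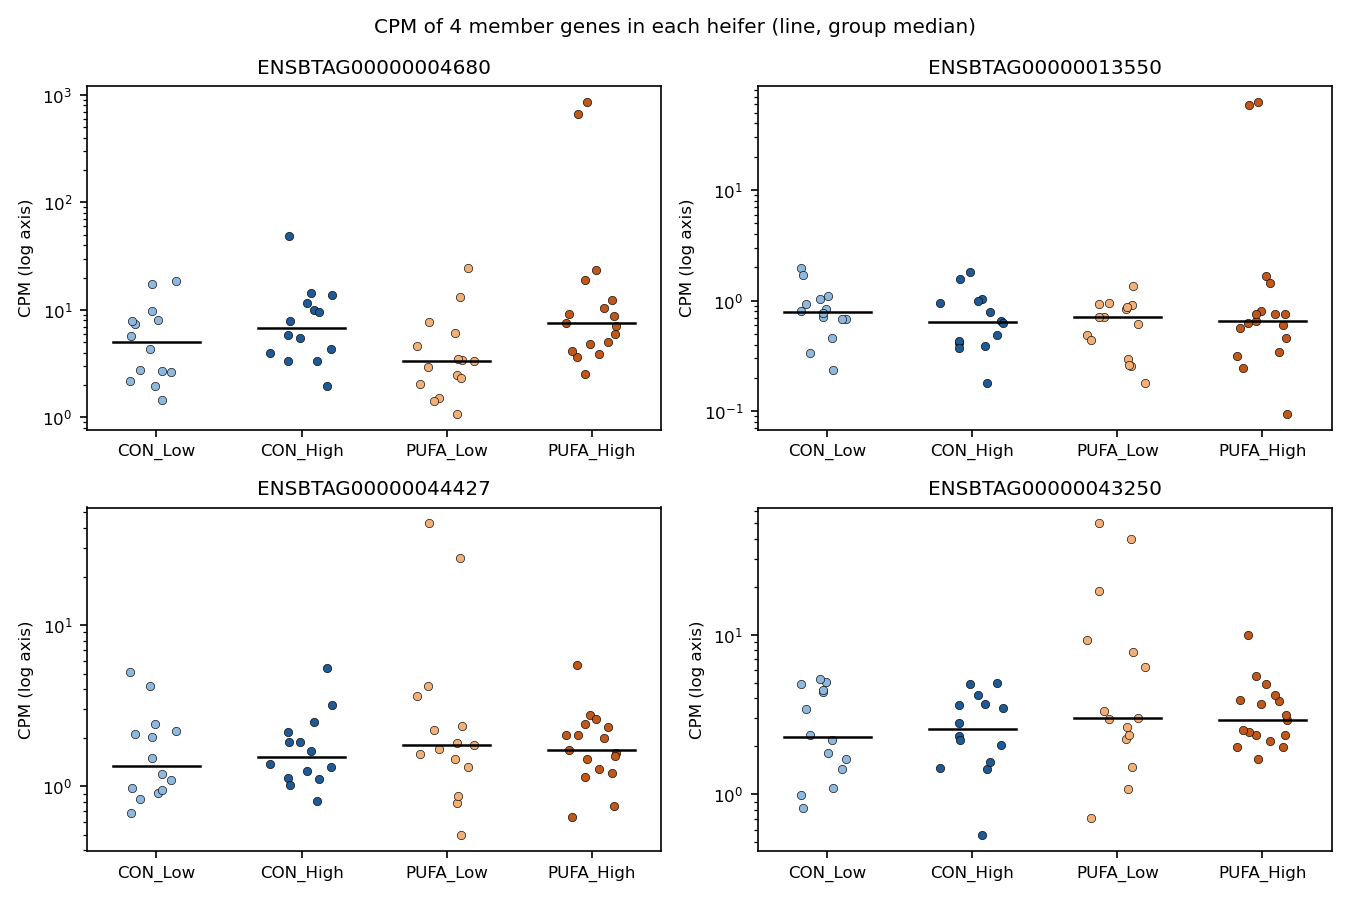
CPM (log axes) of the 4 named genes in each heifer (points) by dietary group, with the group median as a line. In the upper genes 2 PUFA_High heifers lie far above all others (867 and 663 CPM, and 63.0 and 58.8 CPM), in the lower genes 2 PUFA_Low heifers lead (42.9 and 26.1 CPM, and 50.1 and 39.6 CPM), and the other heifers of the 4 diets overlap.

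limma voom was run on log2 CPM with a robust variance step and sample weights, which give less weight to libraries that depart from the rest. Which of these moved the count was not tested. It called 8 members for PUFA_Low minus PUFA_High, where it called 5.26% of all genes. Of these 8, 5 were among the 50 and 2 among the 16 left without PUFA_High replicates 2 and 11. DESeq2, which replaces extreme counts and refits, did so in 42 of 100 members and in 76 genes of the whole table. It called 36 members, where it called 5.64% of all genes, and 35 of these were among the 50 and 13 among the 16.

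Between the planes in control heifers (CON_Low minus CON_High), 0 members and 0% of all genes were DEG by edgeR. At an unadjusted p under 0.05 there were 17 members and 705 genes. DESeq2, limma voom and the likelihood ratio test also called 0 members, and the shares of all genes that they called are not given here. Group B had a median log2 difference of 1.86 here, higher in CON_Low, and of -1.53 without CON_Low replicates 2 and 14. No gene of group B was a DEG in either fit.

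The n-3 PUFA diet on the low plane (PUFA_Low minus CON_Low) gave 16 members as DEG, 12 lower and 4 higher, against a background of 2.57% (1.04% lower, 1.52% higher). Group B supplied 8 of the lower genes, with a median log2 fold change over its 12 genes of -2.17, and group D 3 of the higher ones. DESeq2 called 9 members (2.74% of all genes), limma voom 5 (3.56%) and a fit blocked by code prefix 7 (2.16%). Without CON_Low replicates 2 and 14, 12 of 99 members were DEG, 5 lower and 7 higher. The background in that fit was 2.9% (1.25% lower). Group B then had 0 lower and 2 higher genes and a median of 1.10. The direction of group B thus turned with these heifers. Without CON_Low replicate 14 alone, 10 members were DEG, and the share of all genes in that fit is not given here. Without PUFA_Low replicates 2 and 12, 9 members were DEG and group D had none, where the background was 1.96% (1.43% higher).

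On the high plane (PUFA_High minus CON_High), 0 members and 0% of all genes were DEG by edgeR's quasi-likelihood test, although 49 members and 1513 genes had an unadjusted p under 0.05. DESeq2 called 2 members (0.0139% of all genes), limma voom 0 and the likelihood ratio test 16 (0.202% of all genes). The median log2 difference of group A was 1.77 with all heifers and 0.03 without PUFA_High replicates 2 and 11. In the fit without them 19 members had an unadjusted p under 0.05. The number of all genes under that limit is not given here, so this count has no background. The count of 0 was unstable when single heifers were left out. It became 16, 15, 14, 13, 11 and 8 without PUFA_High replicate 4, 9, 5, 15, 13 and 8 in turn, 12 without replicate 16 or 17, 3 without CON_High replicate 8 and 1 without PUFA_High replicate 1, 3, 6, 7, 10, 12 or 14. In these fits 1 to 30 genes of the whole table were called, which is 0.00696% to 0.209%.

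The difference between both plane effects (that in n-3 PUFA heifers minus that in control heifers, the interaction) passed for 35 members, 28 lower and 7 higher, with a background of 8.04% (3.58% lower, 4.46% higher). Group A held 19 of the lower genes. The count was 20 with DESeq2 (8.48% of all genes), 4 with limma voom (5.4%) and 18 when blocked by code prefix (6.68%). Without PUFA_High replicates 2 and 11 there were 14 members, of which 13 were among the 35, against a background of 6.75%. Group A then had none lower and 1 higher. A test for any difference among the 4 diets passed for 60 members, where 21% of all genes passed, and for 28 without these heifers, where 18.6% passed. DESeq2 passed 36 members (23.6% of all genes), limma voom 3 (32%) and the fit with the prefix as a block 33 (17.3%). In DESeq2, 9 members had no adjusted p in this test or in the interaction. Group B held 11 of the 28 members that passed the test for any difference without PUFA_High replicates 2 and 11. With CON_Low replicates 2 and 14 left out instead, 3 of its 12 genes passed. Its interaction calls then turned from 1 lower (median log2 difference -0.73 with all heifers) to 7 higher (median 2.29). The shares of all genes in that fit are not given here for these 2 tests. Group C had 0 genes in each of these comparisons, with all heifers and without any of the pairs named.

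**Figure D5:**
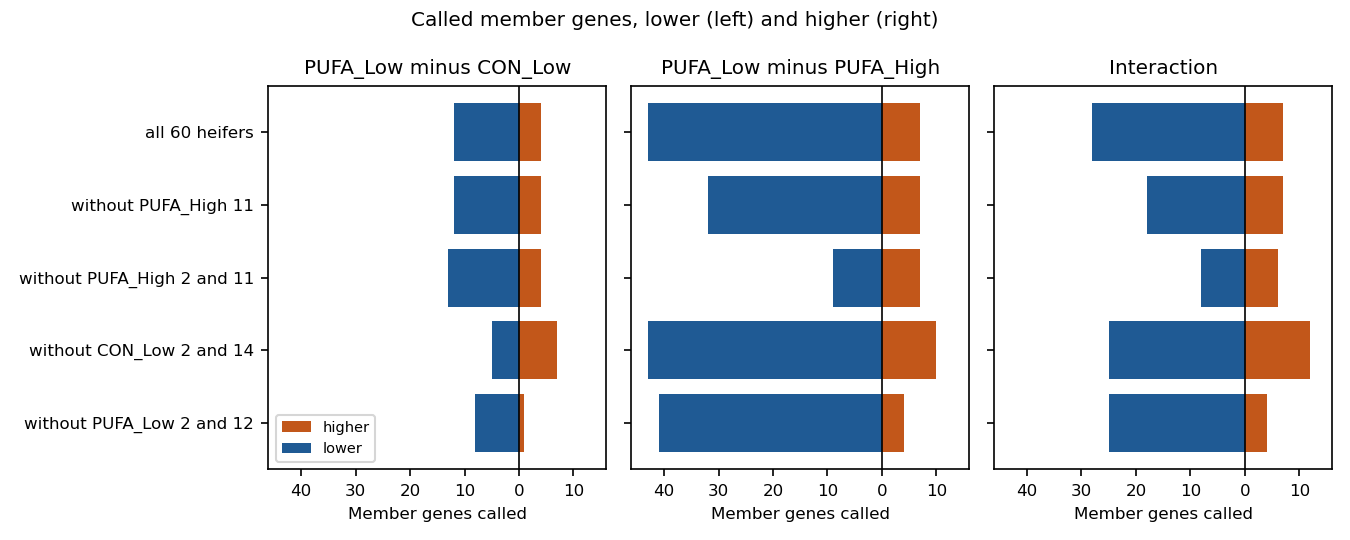
Number of member genes called as DEG, lower (left of 0, blue) and higher (right of 0, orange), in 3 comparisons (panels) with all 60 heifers and without the heifers named at the left. For PUFA_Low minus PUFA_High the lower genes drop from 43 to 9 without PUFA_High replicates 2 and 11, and 7 genes are higher in both fits, 6 of them shared.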

How the data were processed

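For each heifer the authors deposited raw read counts per Ensembl gene, in 1 table of 24616 genes (3947 without a count). Per the labels, reads were aligned to UMD3.1 with TopHat2 2.0.9 and counted with HTSeq 0.5.4p5. The treatment of strand and of reads mapping to several places is not given in the sources used here. Genes were filtered by filterByExpr on the 4 diets, counts were scaled by TMM, and quasi-likelihood models with a mean for each diet were fitted in edgeR 4.0.16 (R 4.3.3). Adjusted p-values are Benjamini-Hochberg values over all genes tested, and standard errors come from the F statistic. CPM use TMM-scaled library sizes. limma 3.58.1 and DESeq2 1.42.0 served as alternatives. The members, and the gene lists, were chosen with earlier results of these data known. Named genes were the 2 lower and 2 higher DEG members ranked first by p-value for PUFA_Low minus PUFA_High. The gene table at hand (37063 genes) paired 0 with Ensembl identifiers, so planned marker lists were not applied. The model and the choice of members were tested on simulated counts. Those for the model held differences of a whole diet and no peaks of single heifers. They therefore cannot show how the model treats such peaks. The 423 pairs of samples within diets differed by more than sampling noise (chi-square per gene at least 17.6), so none was a repeated deposit. The depths of all libraries leave counting error small for the peaks, but not for members under 1 CPM. Heifers were assigned to diets by their own labels, while the deposited description of the design gives 17 low-plane and 15 high-plane n-3 PUFA heifers. The comparisons were therefore also run with these planes exchanged.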

Additional observations from a re-analysis of the deposited data

Results flagged for a closer look

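The plane effect differed between n-3 PUFA and control heifers for 35 members, by the interaction test of edgeR with an adjusted p under 0.10 and a fold change above 1.5. The background was 8.04% of all genes. Without PUFA_High replicates 2 and 11 there were 14 members, against a background of 6.75%. The 4 named genes were among the 35. ENSBTAG00000004680 had an interaction of -3.56 log2 units (adjusted p = 0.0174, edgeR), and -0.05 (adjusted p = 0.967) without PUFA_High replicates 2 and 11. ENSBTAG00000013550 had -3.73 (adjusted p = 0.0107, edgeR), and -0.23 (adjusted p = 0.76) without them. ENSBTAG00000044427 had 1.69 (adjusted p = 0.0667, edgeR) and ENSBTAG00000043250 had 1.5 (adjusted p = 0.0785), and without PUFA_Low replicates 2 and 12 these were -0.03 and 0.42, with neither called.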

How the results depend on the processing

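Members called are given in the order n-3 PUFA on the low plane, plane in n-3 PUFA heifers, interaction and any difference among diets, where 16, 50, 35 and 60 were called. Of all genes tested, 2.57%, 5.61%, 8.04% and 21% were called. DESeq2 gave 9, 36, 20 and 36 members (2.74%, 5.64%, 8.48% and 23.6% of all genes), limma voom 5, 8, 4 and 3 (3.56%, 5.26%, 5.4% and 32%) and the library code prefix as a block 7, 40, 18 and 33 (2.16%, 5.1%, 6.68% and 17.3%). An adjusted p under 0.05 gave 10, 42, 19 and 56 (2.03%, 4.78%, 6.05% and 14.1%) and one under 0.001 0, 5, 0 and 9 (0.306%, 1.81%, 0% and 1.79%). The fit without PUFA_High replicates 11 and 2 and CON_Low replicate 2 gave 11, 16, 17 and 18 (3.46%, 4.49%, 8.55% and 21.5%). Fits of the compared groups alone, with 66 and 63 members tested, gave 9 and 31 (2.7% and 5.24%). Without both PUFA_High replicates 2 and 11 there were 17, 16, 14 and 28 (2.74%, 4.47%, 6.75% and 18.6%), and without both PUFA_Low replicates 2 and 12 9 on the low plane (1.96%). On the high plane, where 0 were called, DESeq2 gave 2 (0.0139%), the likelihood ratio test 16 (0.202%), all genes with at least 1 count 12 (0.169%), and exchanged planes 6 (1.43%). The members' share with limma voom was below that of all genes for the interaction and for any difference among diets. Other scale factors moved no count by over 1.5 times.

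With the planes of n-3 PUFA heifers exchanged, low-plane calls numbered 6 (0.0418% of all genes) and interaction calls 13 (2.17%), and of the 50 plane calls 43 were higher and 7 lower. The plane effects of the named genes became 4.19, 3.55, -1.66 and -1.52 and their interactions 4.81, 3.37, -1.64 and -1.55 (ENSBTAG00000004680, ENSBTAG00000013550, ENSBTAG00000044427 and ENSBTAG00000043250). Without PUFA_Low replicates 2 and 12, ENSBTAG00000044427 had a plane effect of -0.0687 and an interaction of -0.0302.

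With the replicate number as a block, 3, 16, 6 and 4 members were called (2.17%, 4.39%, 5.36% and 11.5% of all genes). Same-numbered heifers of different diets did not deviate together (mean r -0.053 over 85 pairs, 0.0046 over 1262 other pairs). This cannot exclude that the numbers reflect blocks, since heifers of a block need not be alike in expression. Within each diet the replicate numbers rise with the library code prefix. Leaving out each heifer in turn gave 10 to 18, 39 to 53, 24 to 38 and 43 to 64, 0 to 16 on the high plane and 0 in control heifers. For the ranges other than that on the high plane, the shares of all genes are not given here. Whether the members moved apart from the whole table was not tested.

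Of the 100 members, 95 remained with a prior count of 0.5, 92 with 5, 56 with all genes of at least 1 count, 91 with at least 1 CPM in 14 heifers, 82 and 56 when ranked by the second highest and by the next highest heifer, 87 with no limits on r, 86 without PUFA_High replicate 11, 62 without the 3 heifers above and 63 without PUFA_High replicates 2 and 11. The median number of heifers at peak was 2 at 8-fold and 3 at 0.5 of the way to the maximum. Members in peak groups fell from 48 to 29 with Spearman correlation. The cause of these changes was not tested, beyond the heifers left out.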
